A study of Mus musculus with 3 samples.

Results

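Dapagliflozin given after abdominal aortic constriction (AAC + DAPA) was compared with AAC alone over the genes of the mouse heart. The comparison is the log2 value on the AAC + DAPA array minus that on the AAC array, 1 array each, so that a positive difference means a higher level with dapagliflozin. Of 19505 genes measured, 18675 lie outside the X and Y chromosomes, and the 9679 of them whose higher array lay above the median of that array are described here. AAC is a ligature that narrows the abdominal aorta, so that the left ventricle pumps against a higher pressure. The mice were C57BL/6, labelled male in all groups and 10 weeks old by the labels. The AAC + DAPA group drank water with dapagliflozin, 25 mg/kg each day over 12 weeks, and the AAC group was operated on in the same way without the drug. In the paper RNA was isolated after 12 weeks of treatment, so 10 weeks cannot be the age of the treated mice at that point. The stage that the labelled age refers to is not stated. A sham-operated group without the drug gave 1 further array, whose values are set beside the others for each gene. Whether RNA was pooled over mice before hybridization is not stated. With 1 array per group the differences have no replicate check, no test was run, and genes are called higher or lower where the arrays lay 1.5-fold or more apart. Where 3 levels are given without labels, they are log2 values in the order sham, AAC, AAC + DAPA.

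Dapagliflozin inhibits SGLT2, the sodium-glucose cotransporter of the kidney tubule, and thereby sends glucose into the urine. The adult heart draws most of its energy from fatty acids, which enter mitochondria as carnitine esters and compete with glucose at the pyruvate dehydrogenase complex. Under pressure overload heart muscle is known to return to part of its fetal gene program and to use less fatty acid, while macrophages and other immune cells gather between the muscle cells. The lists below follow these parts: fuel use, protein turnover and stress, the muscle itself, matrix and vessels, immune and blood cells, and cell cycle and clock.

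The arrays had medians of 5.24 (sham), 5.30 (AAC) and 5.23 (AAC + DAPA) on the log2 scale and maxima of 19.9 to 19.93, so their distributions were close to each other. Defining heart muscle genes were near the top of every array. The atrial and ventricular muscle gene Myh6, the main adult myosin heavy chain, stood at 19.09, 19.05 and 19.03, and the calcium pump Atp2a2 at 19.71 on all 3. None of 17 epithelial and mesothelial markers was high enough to be described. The 25 described genes with several probes gave an SD of 0.24 (log2) for the difference between probes of 1 gene, which reads the same RNA and holds no spread between mice. Of 32 measured genes of the Y chromosome, 24 had an AAC level 1.5-fold or more above those of sham and AAC + DAPA, although all mice are labelled male. The condition and whatever set the Y-linked genes apart cannot be told apart on these arrays. The genes of X and Y were left out of all that follows.

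Among the 9679 genes, 552 (5.7%) were higher and 520 (5.37%) lower by 1.5-fold or more with dapagliflozin, 11.1% together, and 8607 lay within 1.5-fold. The number of rises and falls was thus close to equal, with 51.5% of the called genes higher. With each array centred on its own median this share was 64.2% (741 higher and 414 lower), because centring adds 0.07 to every difference. List medians below 0 by less than this shift change sign with centring. The median difference was 0.00, the 25th and 75th percentiles were −0.16 and 0.17, and 5% of the genes lay under −0.61 and as many above 0.63. The difference was exactly 0 for 1656 genes (17.1%). The largest falls were more numerous than the largest rises. Past 2-fold, 119 genes (1.23%) were higher and 168 (1.74%) lower, 2.97% together, and past 4-fold, 10 were higher and 22 lower. For 487 of the genes the lower array was at or under its median, and such genes could be described only through their higher array. They include 73 of the 552 higher and 103 of the 520 lower genes. Over all 18675 genes outside X and Y, with no filter on the level, 743 (3.98%) were higher and 767 (4.11%) lower. The list counts below are to be read beside 5.7% higher and 5.37% lower among the genes described.

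**Figure D1:**
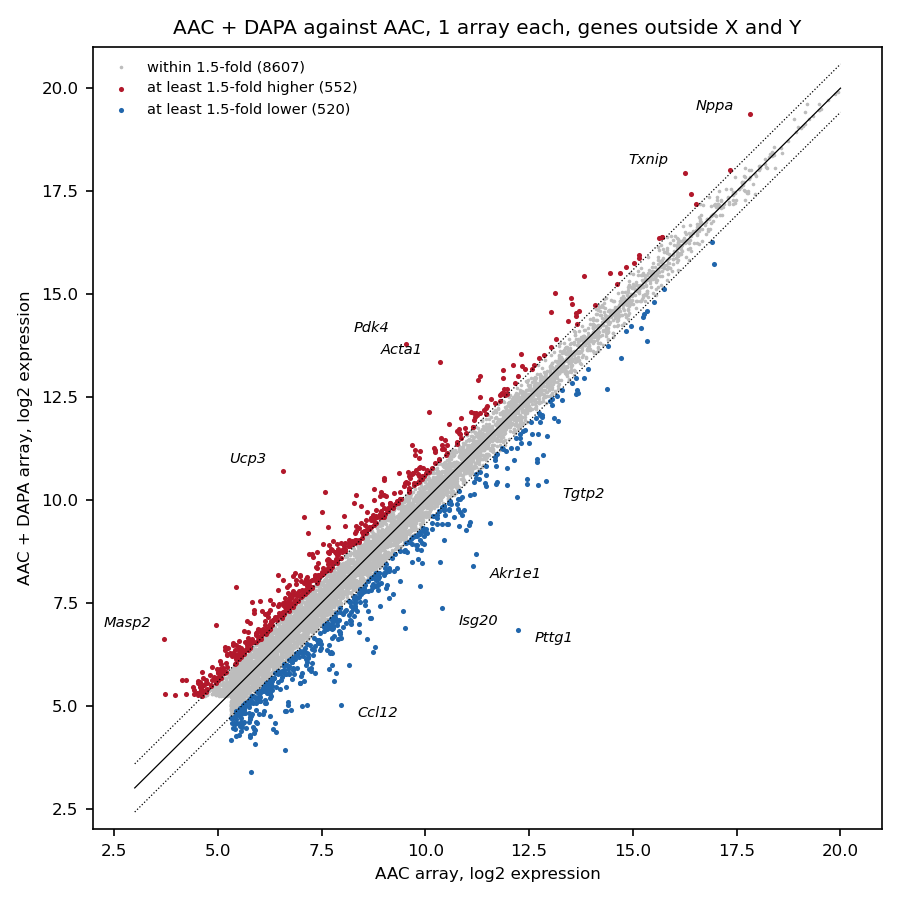
Log2 expression on the AAC array (horizontal) and on the AAC + DAPA array (vertical) for the 9679 genes described, 1 point per gene. Most points follow the solid line of equal levels, 552 red genes lie above and 520 blue genes below the dotted lines at 1.5-fold, and Pdk4, Ucp3 and Pttg1 are the farthest from it.

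The share of genes past 1.5-fold depended on the level. With all genes outside X and Y split into 10 classes by the mean of both arrays, 0.533% of the lowest class were higher and 1.17% lower. The share of higher genes was greatest in class 7 (6.97%, mean levels from 6.32 to 7.61) and that of lower genes in class 6 (5.75%, levels from 5.32 to 6.32). In the top class, from 11.16 on, 4.18% were higher and 3.48% lower.

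**Figure D2:**
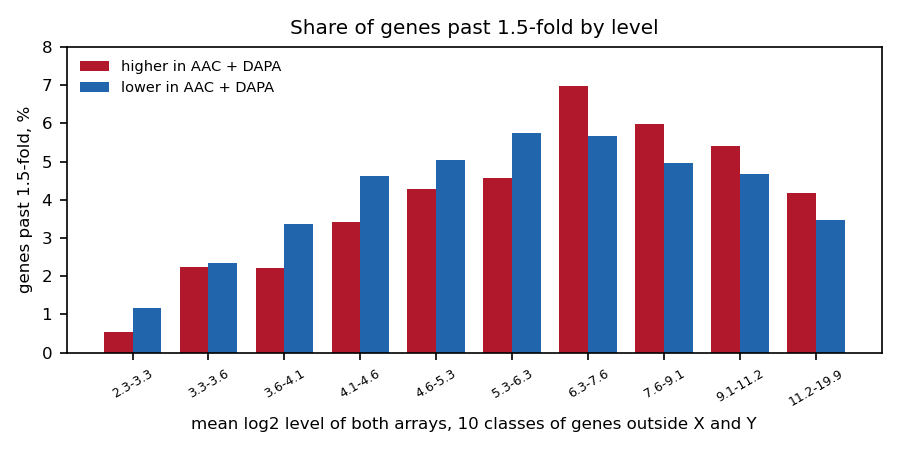
Percent of genes past 1.5-fold, higher (red) or lower (blue) with dapagliflozin, by 10 classes of the mean log2 level of both arrays over 18675 genes. Both shares are smallest in the lowest class (0.533% and 1.17%), lower genes are the more frequent up to class 6, and higher genes from class 7 on.

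The 25 largest rises were headed by genes of fuel use. Pdk4, the kinase that shuts off pyruvate dehydrogenase, had log2 levels of 15.78, 9.54 and 13.78, a difference of 4.24. Ucp3, a mitochondrial carrier of the uncoupling protein family, had 9.54, 6.57 and 10.70, a difference of 4.13. Pdk4 therefore stood below sham and Ucp3 above it. The cytosolic malic enzyme Me1, which makes NADPH, had 14.02, 13.12 and 15.03 (3.76-fold higher), and the amino acid transporter Slc38a3, which carries glutamine, had 11.41, 8.34 and 10.11 (3.41-fold higher). Txnip, an arrestin that inhibits thioredoxin and glucose uptake, had 15.45, 16.25 and 17.95 (3.25-fold higher), so that AAC + DAPA held the highest level and sham the lowest. Tacc2, a centrosomal coiled-coil protein, Kpna2, an importin that carries proteins into the nucleus, and the ribosomal protein Rpl35a were 3.23-fold, 3.12-fold and 2.93-fold higher. Tacc2 and Kpna2 had their lowest level on the AAC array and their highest on the AAC + DAPA array. The olfactory receptor genes Olfr1396 (6.88, 4.96 and 6.95) and Olfr437 (3.83, 3.73 and 5.27) are also among the 25. In AAC, Olfr437 was under the 25th percentile (3.85).

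Several of the largest rises belong to innate recognition and vessels. The lectin pathway proteases Masp1 and Masp2, which cleave complement once a lectin has bound a sugar surface, had 6.65, 6.44 and 8.18 and 3.75, 3.71 and 6.61. The collectin and scavenger receptor Colec12 had 7.63, 7.50 and 9.71, and the retinol-binding protein Rbp7, found in capillary endothelium, 7.62, 7.59 and 10.18. In each of these genes sham and AAC lay close together, and the AAC + DAPA array was the high one. Pgm3, an enzyme of UDP-N-acetylglucosamine synthesis, had 6.64, 7.07 and 9.58, again with AAC + DAPA as the high array. It was the 1 gene past 1.5-fold among 10 of the hexosamine pathway, where the entry enzyme Gfpt1 had 8.51, 8.39 and 8.51 and Uap1, the step after Pgm3, 10.12, 10.12 and 9.72.

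The 25 largest falls were headed by Pttg1, which encodes securin, the inhibitor of separase that holds sister chromatids together. Its levels were 13.89, 12.24 and 6.84, 42.2-fold under AAC and below sham as well. Akr1e1, an aldo-keto reductase, had 11.40, 11.15 and 8.40, and Fbxo44, a substrate adaptor of a ubiquitin ligase, 7.51, 7.84 and 5.79. In these too the AAC + DAPA array was the low one. Tmem100, a membrane protein of endothelium, had 10.03, 8.15 and 5.98, so that its level was highest in sham. Car2, the cytosolic carbonic anhydrase, had 7.31, 8.73 and 6.29, and the protease inhibitor Serpina3n 6.44, 7.79 and 5.59. Most of the remaining falls are genes of immune cells or genes that interferons induce. Among them were Isg20 (6.36, 10.39 and 7.36), an exonuclease against viral RNA, the checkpoint ligand Cd274 (5.63, 8.79 and 6.43), the cytokine Il15 (11.32, 12.45 and 10.38), the inhibitory antibody receptor Fcgr2b (8.00, 9.50 and 6.89), the lymphocyte and macrophage surface protein Cd52 (4.53, 6.62 and 3.93) and Slamf7 (3.31, 5.81 and 3.39), a receptor of immune cells. In each of these the AAC array was the highest.

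**Figure D3:**
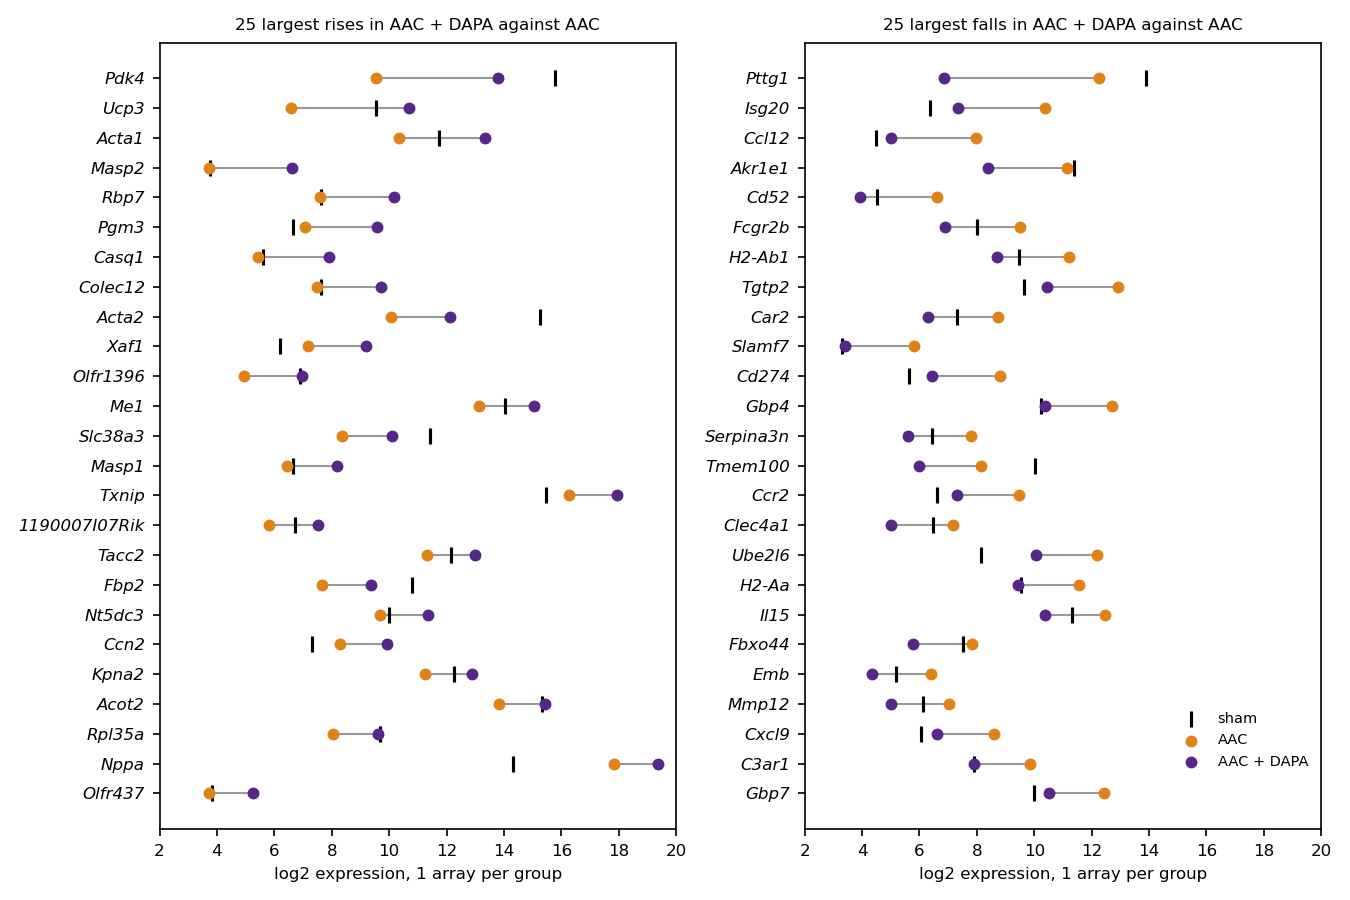
Log2 levels of the 25 genes with the largest rise (left) and the 25 with the largest fall (right) in AAC + DAPA (purple) against AAC (orange), with sham as a black bar, 1 array each. Pdk4 and Acta2 stood below sham in AAC + DAPA, Pttg1 lay far below both other arrays, and in most immune genes of the right panel the orange AAC point lies to the right of sham.

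The guanylate-binding proteins and immunity-related GTPases, which interferons induce and which attack membranes around intracellular microbes, were lower almost throughout. All 13 measured members were high enough to be described, 11 of 13 were lower by 1.5-fold or more, against 5.37% of the genes described, 0 were higher, and the median difference was −1.47 against 0.00. Tgtp2 had 9.65, 12.91 and 10.46, Gbp4 10.23, 12.71 and 10.37, and Gbp7 9.99, 12.44 and 10.51. In all 3 the AAC array was the highest and AAC + DAPA came nearer to sham. Gbp3, Gvin1, Iigp1 and Gbp2 were 3.66-fold, 3.39-fold, 3.01-fold and 2.77-fold lower. Several of these genes are close copies of another gene (Gbp3 and Gbp7, Tgtp2 and Tgtp1), and how the probes divide their transcripts is uncertain, as it is for Acot1 and Acot2 and for the H2 genes below. Interferon-induced promoters commonly carry the interferon-stimulated response element. Its core, GAAA repeated with 2 bases between, searched on both strands in the 250 bases before each start, was found in 7 of 7 members with a promoter window in RefSeq (GRCm38.p6) and in 2.98% of all 32851 windows. The matches are shown because the members with a window all hold the core; capitals mark it, in either orientation and with overlapping matches run together, and each sequence reads 5′ to 3′ along the gene's strand, given in parentheses.
Gbp2, chr3:142620584-142620633 (+): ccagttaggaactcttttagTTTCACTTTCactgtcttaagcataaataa
Gbp3, chr3:142559979-142560034 (+): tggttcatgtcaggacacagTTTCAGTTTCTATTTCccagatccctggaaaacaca
Gbp7, chr3:142530263-142530312 (+): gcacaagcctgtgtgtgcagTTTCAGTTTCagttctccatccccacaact
Igtp, chr11:58199502-58199551 (+): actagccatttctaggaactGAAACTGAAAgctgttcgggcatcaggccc
Irgm1, chr11:48871421-48871470 (-): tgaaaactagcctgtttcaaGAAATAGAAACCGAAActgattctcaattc
Irgm2, chr11:58214893-58214942 (+): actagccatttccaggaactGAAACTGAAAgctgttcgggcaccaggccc
Tgtp2, chr11:49064253-49064302 (-): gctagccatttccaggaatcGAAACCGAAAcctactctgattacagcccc
The Igtp, Irgm2 and Tgtp2 stretches resemble each other closely, so the 7 matches are not 7 separate occurrences. The core was found in 2 of 14 MHC class I and antigen processing genes with a window, B2m and H2-T23, and in neither the 5 of them past 1.5-fold with a window nor the 20 largest rises with a window. A match describes the letters and does not show that a factor was bound.

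Other interferon-stimulated antiviral genes did not share 1 direction. Of 23 described, 6 were lower and 3 higher, and the median was 0.00. Besides Isg20, Ube2l6, which loads the ubiquitin-like protein ISG15, had 8.14, 12.20 and 10.07, and Rsad2, the antiviral enzyme viperin, 6.77, 8.26 and 7.34. Parp14, Irf9 and Stat2, the last a partner of Irf9 in the interferon-activated transcription factor, were 2.01-fold, 1.74-fold and 1.69-fold lower. The higher genes were Xaf1, an inducer of apoptosis (6.18, 7.18 and 9.19), Ifit2, which inhibits translation (5.58, 6.74 and 7.63), and Phf11d (7.72, 7.44 and 8.17). In Xaf1 and Ifit2 the AAC + DAPA array was thus the highest, while Ifit3, a relative of Ifit2, had 8.10, 9.04 and 8.97.

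Some genes of antigen presentation were lower. Of 17 MHC class I and antigen processing genes, all described, 6 were lower (35.3%, against 5.37% of the genes described) and 0 higher, with a median of −0.44. The class I heavy chains H2-K1 and H2-D1 had 13.18, 13.93 and 13.18 and 8.02, 8.68 and 7.82, the peptide transporter Tap1 6.73, 7.77 and 6.88, and the light chain B2m, within 1.5-fold, 17.59, 18.43 and 18.06. Of 18 MHC class II and dendritic cell genes only 5 were described. The class II chains H2-Ab1 (9.48, 11.21 and 8.69), H2-Aa (9.54, 11.56 and 9.43) and H2-Eb1 (7.53, 8.90 and 7.42) and the loading factor H2-DMb1 (6.44, 7.63 and 6.35) were lower, by 5.74-fold, 4.38-fold, 2.79-fold and 2.43-fold. With dapagliflozin H2-Ab1 stood more than 1.5-fold below sham, whereas H2-Aa, H2-Eb1 and H2-DMb1 lay only slightly below it, within 1.5-fold. The median of the 5 was −1.48. Over all 18, 6 were lower and 1 higher, H2-Ob (4.27, 3.93 and 4.57), and the median was −0.13.

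Chemokines, the attractants of leukocytes, and their receptors were mostly lower among those described. Of 36 measured, 17 were described, of which 11 were lower, against 5.37% of the genes described, and 0 higher. Some of them, such as Ccl7, Ccl8 and Cxcr4, were described only through the AAC array, where they were high. Over all 36, 12 were lower and 0 higher, against 4.11% lower over all genes outside X and Y. The median of the 17 was −1.04, and that of all 36 was −0.10. Ccl12, a monocyte attractant, had 4.48, 7.97 and 5.02, its receptor Ccr2 6.62, 9.46 and 7.30, and the interferon-induced T cell attractant Cxcl9 6.04, 8.59 and 6.62. In these the AAC array stood above both others. Ccl9 (9.63, 9.13 and 7.61) and Ccl6 (8.30, 7.94 and 6.80), made by myeloid cells, fell to 2.87-fold and 2.2-fold under AAC from levels that were not above sham in AAC. Ccl2 had 5.67, 5.55 and 5.39.

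Markers of macrophages, the most numerous immune cells of the heart, were mostly lower. Of 22 measured, 17 were described. Of these 10 were lower (58.8%, against 5.37% of the genes described) and 0 higher. The median of the 17 was −0.78, and over all 22 it was −0.57. The mannose receptor Mrc1 had 11.80, 13.20 and 11.92, the lysozyme Lyz2 11.00, 12.13 and 10.97, the protease Ctss 8.19, 9.38 and 8.02, and the antibody receptor Fcgr3 9.63, 10.80 and 9.36. Each of these returned to within 1.5-fold of sham. The summed level of the list was 13.17, 14.26 and 13.13 (log2 of the sum). Adgre1, which encodes the macrophage antigen F4/80, had 6.41, 6.60 and 6.60 and did not follow the others. Fewer macrophages and less of these RNAs per macrophage cannot be told apart in RNA of whole tissue, which holds for every cell type marker below.

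Of 11 markers of recruited monocytes, 8 were described and 3 were lower, Ccr2, the proteoglycan Vcan and Ms4a4c, while Ly6c2 had 9.79, 9.75 and 9.83. Of 16 neutrophil markers only 3 were described, S100a9 (4.80, 6.68 and 5.01), Retnlg (3.57, 5.77 and 4.24) and Lcn2 (7.91, 9.12 and 8.28), all lower in AAC + DAPA. S100a9 and Retnlg were described only through the AAC array, where they were high. Over all 16, 3 were lower and 0 higher, against 4.11% lower over all genes outside X and Y. The defining neutrophil granule genes Elane, Mpo, Ngp, Camp and Ltf were not described, 7 of the 16 were under the 25th percentile on all arrays, and the median of all 16 was −0.02. Of 19 T and natural killer cell markers 3 were described, and the costimulatory receptor Cd28 (6.94, 7.16 and 6.06) was the 1 that was lower. None of the 3 described B and plasma cell markers, of 12 measured, was past 1.5-fold. Cd3e, Cd8a, Cd79a and Ms4a1, which define T and B cells, were too low to be described.

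Complement genes went both ways. Of 30 measured, 19 were described, with a median of 0.00. Of these 3 were higher (15.8%) and 5 lower (26.3%), against 5.7% and 5.37% of the genes described. The higher genes were the proteases Masp1 and Masp2 and the collectin Colec12. The lower genes were the 3 chains of C1q, which macrophages make (C1qa 9.0, 9.0 and 8.22, C1qb 6.32, 7.17 and 6.25, C1qc 5.55, 6.69 and 5.90), the receptor C3ar1 (7.91, 9.86 and 7.91) and the terminal component C7 (6.65, 8.41 and 6.80). Of 10 inflammasome and interleukin-1 family genes described, the NF-kappaB inhibitor Tnfaip3 (5.60, 6.08 and 4.79) was lower and the alarmin Il33 (5.2, 5.48 and 6.24) higher.

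Some genes of blood cells were lower. Of 11 platelet genes, 8 were described, with a median of −0.57, and 3 were lower: the platelet chemokine Ppbp (5.93, 6.65 and 4.86), the thrombin receptor F2rl2 (5.27, 6.26 and 5.27) and platelet tubulin Tubb1 (5.45, 5.76 and 5.04). Of 14 red blood cell genes, 9 were described and 4 were lower. They were the anion exchanger Slc4a1 (7.54, 8.92 and 7.99), Bpgm (6.78, 8.66 and 7.14), which makes the phosphoglycerate regulator of hemoglobin, Mkrn1 (8.90, 10.78 and 9.78), and Isg20, which is also in the interferon list. All 4 were highest in AAC. The lower genes were 37.5% of the platelet and 44.4% of the red blood cell genes described, against 5.37% of all genes described. Ppbp and Tubb1 were described only through the AAC array, where they were high. Over all 11 platelet and 14 red blood cell genes measured, 3 and 5 were lower and 0 higher. The share of lower genes was 4.11% over all genes outside X and Y, and the medians of all measured members were −0.54 and −0.12. The summed level of the platelet list was 9.09, 9.34 and 8.78 and that of the red blood cell list, in which the heart-expressed Ank1 weighs most, 15.53, 15.62 and 15.48. The part that retained blood had in the immune differences was not tested.

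**Figure D4:**
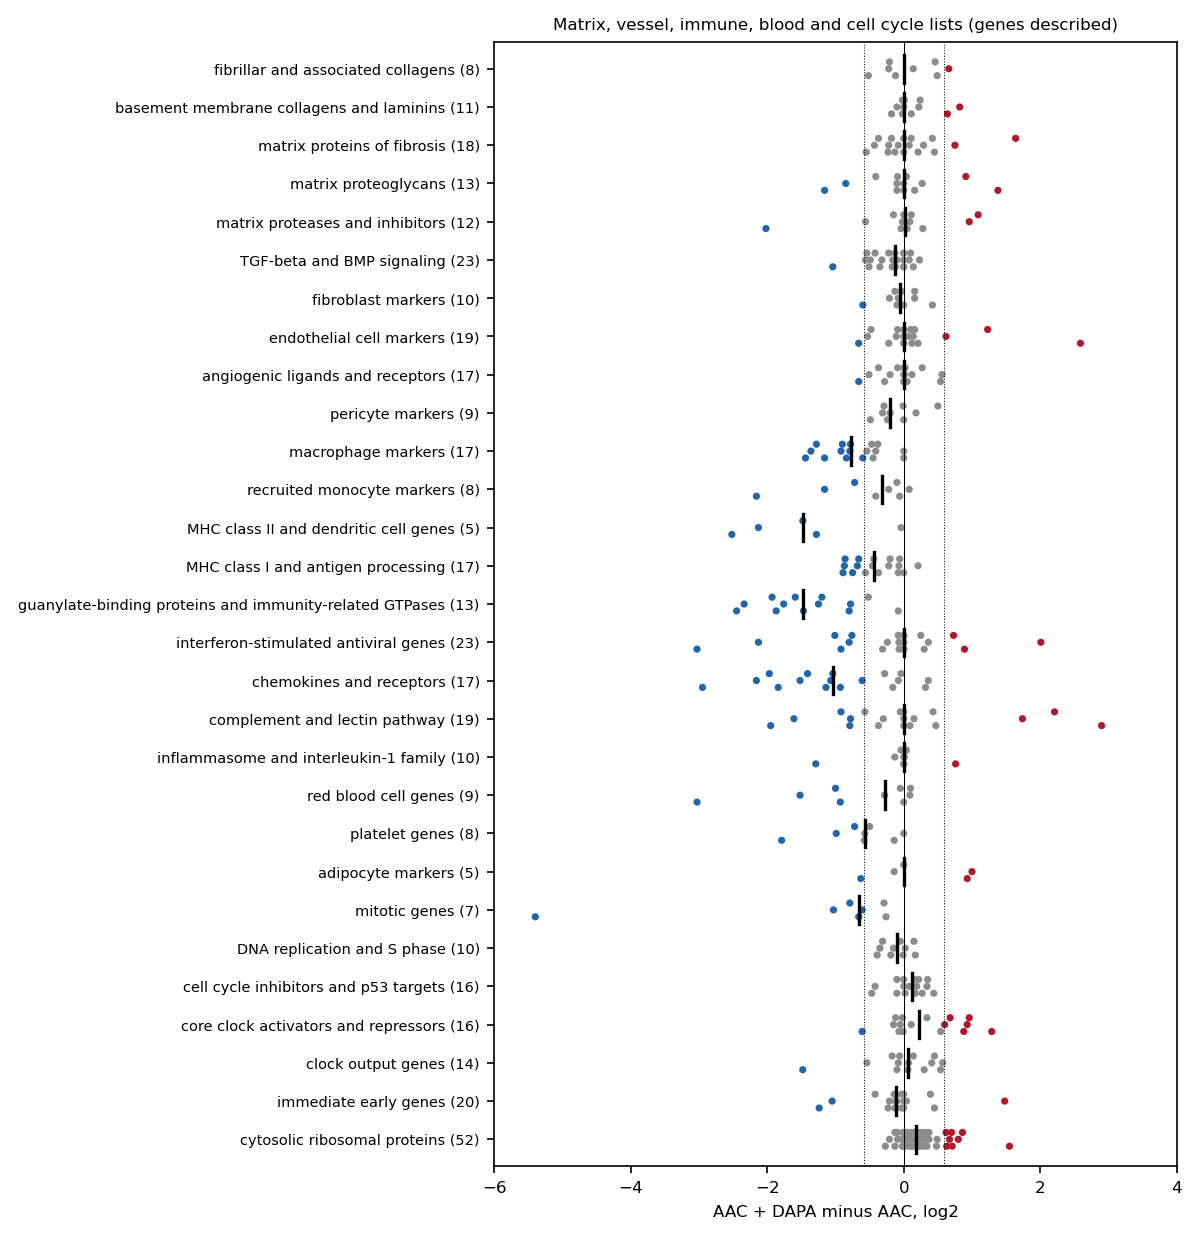
Difference between AAC + DAPA and AAC (log2, horizontal) for each described member of the matrix, vessel, immune, blood, other cell type, cell cycle and clock lists with at least 5 such members. Points are genes (red and blue at least 1.5-fold higher or lower), black bars are list medians, the number of genes is in parentheses, and the GTPase and chemokine lists lie furthest left, at −1.47 and −1.04, among those in which over 10 genes were described.

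Some genes of fatty acid uptake, mitochondrial entry, beta-oxidation and acyl-CoA hydrolysis were higher, and none of these lists had a described member that was lower. Of 10 genes of the carnitine shuttle described, 3 were higher, against 5.7% of all, 0 were lower, and the median was 0.47. They were Mlycd, which removes the malonyl-CoA that blocks the shuttle (8.67, 7.40 and 8.73), Cpt2, which re-forms acyl-CoA inside (13.44, 11.32 and 12.50), and the carrier Slc25a20 (14.79, 13.64 and 14.53). Mlycd was back at its sham level, and Cpt2 stood between AAC and sham. Cpt1b, the gate of the shuttle in muscle, had 15.41, 14.94 and 15.50, a difference of 0.56 that lay just within 1.5-fold (past it with centred arrays), and Cpt1a 7.39, 7.58 and 8.08. Of 14 beta-oxidation enzymes, all described, 2 were higher and 0 lower, with a median of 0.34. Acadvl, which starts the oxidation of long chains, had 16.27, 14.84 and 15.66, whereas the medium-chain enzyme Acadm had 15.07, 15.07 and 15.28. Of 13 thioesterases, which release fatty acids from CoA, 5 were described, and the mitochondrial Acot2 (15.33, 13.82 and 15.43) and its cytosolic copy Acot1 (7.85, 5.87 and 7.32) were higher. Of 9 genes of fatty acid uptake the transporter Slc27a1 (11.60, 11.32 and 12.12) was higher, while the translocase Cd36 had 17.96, 17.68 and 17.86. Plin5, a coat protein of lipid droplets that the study follows, had 7.95, 7.24 and 7.88.

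A direct repeat of AGGTCA with 1 base between, on either strand, a strict form of the site that PPAR receptors bind with RXR, was found in 0.0335% of all promoter windows. No window of the 8 carnitine shuttle, 12 beta-oxidation and 4 thioesterase genes with one held these letters, which says nothing of sites outside the 250 bases or of looser spelling.

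None of the 16 tricarboxylic acid cycle genes was past 1.5-fold, and the median was 0.00; citrate synthase Cs had 16.31, 16.22 and 16.32. In the pyruvate dehydrogenase list Pdk4 was the 1 gene of 11 past 1.5-fold, and the other kinases Pdk1 (13.96, 14.05 and 14.17) and Pdk2 (15.11, 14.63 and 15.02) differed by 0.12 and 0.39. Of 9 mitochondrial carriers described, 4 were higher, against 5.7% of the genes described. They were Ucp3, the CoA carrier Slc25a42 (8.70, 7.86 and 8.65), the pyrimidine nucleotide carrier Slc25a33 (4.80, 4.57 and 5.32) and Slc25a34 (6.69, 6.17 and 6.82). Slc25a33 was described only through the AAC + DAPA array. Over all 11 measured, 4 were higher and 1 lower, Slc25a25 (5.10, 4.64 and 3.90). The main adenine nucleotide carrier of heart, Slc25a4, had 19.33, 19.34 and 19.33.

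Hk2 and Pfkfb3, which promote glycolysis, were lower, and genes of glycogen went both ways. Of 15 glycolysis genes, all described, 2 were lower and 0 higher. Hexokinase 2, Hk2, had 12.15, 12.50 and 11.38 (2.17-fold lower), and Pfkfb3, which makes the activator of phosphofructokinase, 5.46, 7.30 and 6.23 (2.10-fold lower). Muscle phosphofructokinase Pfkm had 15.34, 15.55 and 15.30 and Gapdh 18.34, 18.36 and 18.36. The glucose transporter Slc2a1, found in many cell types, had 8.95, 9.49 and 8.75, whereas the insulin-regulated Slc2a4 had 11.02, 10.98 and 11.06. The targeted transporter gene Slc5a2, which encodes SGLT2, was listed at 3.81 on all 3 arrays, close to their 25th percentiles, and its relative Slc5a1 at 2.84, 2.91 and 3.15. Of 15 glycogen genes described, 2 were higher and 2 lower. The muscle fructose bisphosphatase Fbp2 had 10.80, 7.66 and 9.35 (3.23-fold higher). The subunits that bring protein phosphatase 1 to glycogen were divided, with Ppp1r3b at 8.78, 9.23 and 7.72 and Ppp1r3c at 15.85, 15.33 and 13.85, lower by 2.85-fold and 2.79-fold, and Ppp1r3d at 7.57, 8.17 and 8.88, higher by 1.64-fold. For Ppp1r3b and Ppp1r3c the AAC + DAPA array was the lowest of the 3.

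Other fuels and building blocks had falls or single genes. Of 6 genes of ketone body use and monocarboxylate transport described, the transporters Slc16a1 (15.20, 15.33 and 14.59) and Slc16a7 (8.10, 7.86 and 6.97), which carry lactate, pyruvate and ketone bodies, were lower, by 1.67-fold and 1.85-fold. The enzymes of ketone use Oxct1 (17.18, 17.70 and 17.28) and Bdh1 (10.03, 10.12 and 10.36) lay within 1.5-fold. Of 20 genes of branched-chain amino acid breakdown, Acadsb (11.86, 13.67 and 12.59) and Bckdhb (11.42, 12.75 and 11.90), a subunit of the committing dehydrogenase, were lower, and the median was −0.12. Both stood highest in AAC. In sterol synthesis Hsd17b7 (11.18, 11.73 and 10.43) was lower and Lss (5.76, 4.97 and 5.88) higher, and Me1 was the 1 gene of 10 for NADPH production past 1.5-fold.

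Chaperones of the endoplasmic reticulum, which fold secreted and membrane proteins and are induced together when folding fails, had 5 higher genes and 1 lower gene among 15 described of 17 measured. The other described members lay within 1.5-fold, and the median was 0.28 (0.17 over all 17). Thus 33.3% of the list was higher and 6.67% lower, against 5.7% and 5.37% of the genes described. The chaperones Hyou1 and Hspa5 had 9.58, 8.93 and 10.20 and 17.49, 17.35 and 18.02. The disulfide isomerase Pdia3 had 12.08, 11.81 and 12.55, the isomerase-like Creld2 6.68, 6.38 and 7.16, and Sel1l, part of the machinery that exports misfolded proteins, 9.37, 9.02 and 9.65. In these 5 genes the AAC + DAPA array was the highest and AAC the lowest. Dnajc3, which inhibits the stress kinase PERK, had 10.63, 10.83 and 10.03 and was lower. The endoplasmic reticulum stress element of these promoters, CCAAT and CCACG with 9 bases between, was found on either strand in 7 of the 14 members with a window (Calr, Canx, Creld2, Dnajc3, Hsp90b1, Hspa5 and Pdia6), 0.113% of all windows holding it. The element is shown for the 3 members past 1.5-fold that hold it, Hspa5 and Creld2 higher and Dnajc3 lower, with the element in capitals.
Hspa5, chr2:34772005-34772063 (+): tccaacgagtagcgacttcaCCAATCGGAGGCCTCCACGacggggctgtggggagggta
Creld2, chr15:88819500-88819558 (+): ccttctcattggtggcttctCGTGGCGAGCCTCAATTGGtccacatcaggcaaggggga
Dnajc3, chr14:118937807-118937865 (+): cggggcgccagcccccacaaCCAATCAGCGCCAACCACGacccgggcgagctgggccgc
In Creld2 the element lies in the reverse orientation. Of the other 4 members with the element, Calr had a difference of 0.51, Pdia6 of 0.33, Hsp90b1 of 0.28 and Canx of −0.13, so that genes with these letters did not share 1 direction. Of 13 described genes of the amino acid response through ATF4, a separate branch of the stress response, none was past 1.5-fold, with Atf4 at 11.46, 11.24 and 11.23 and Ddit3 at 7.77, 7.68 and 7.77.

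Small heat shock proteins and genes of protein turnover had some rises and no falls past 1.5-fold. Of 16 cytosolic heat shock proteins described, Hspb1 (10.74, 9.59 and 10.68) and Hspb6 (17.37, 16.40 and 17.43), which guard the contractile fibers, were higher, and with centred arrays the number was 4. The median was 0.33. Of 34 proteasome and VCP complex genes, 4 were higher and 0 lower, with a median of 0.09: the unfolding ATPase Vcp (12.31, 11.18 and 12.12) and the proteasome subunits Psma4, Psmd4 and Psmd2, by 1.92-fold, 1.78-fold, 1.58-fold and 1.52-fold. The higher share of the proteasome and VCP list was 11.8%, against 5.7% of the genes described. Of 51 mitochondrial ribosomal proteins 5 were higher (9.8%) and 0 lower (median 0.12), and of 52 cytosolic ones 8 (15.4%) and 0 (median 0.18). In all of these that passed 1.5-fold AAC had the lowest level. The muscle ubiquitin ligases Trim63 (14.17, 13.52 and 13.23) and Fbxo32 (11.56, 11.80 and 12.09), which mark muscle proteins for breakdown, lay within 1.5-fold.

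Among 18 hypoxia-induced genes described, 4 were lower and 1 higher, with a median of −0.02. The oxygen-sensing hydroxylase Egln3 had 15.04, 14.71 and 13.45 (2.39-fold lower) and the vasodilator peptide Adm 7.52, 8.19 and 7.52, beside Pfkfb3 and Slc2a1 from the glucose lists. P4ha1, a collagen hydroxylase, had 11.78, 10.33 and 11.00 and was higher. The vessel growth factor Vegfa, within 1.5-fold, had 15.23, 14.41 and 13.90. Of 17 antioxidant genes regulated by NRF2, only Gclm, a subunit of the first enzyme of glutathione synthesis, passed 1.5-fold, with 10.25, 10.46 and 9.83, and with centred arrays it did not. Of 20 atrophy and FOXO genes Txnip, Foxo3 and the translation inhibitor Eif4ebp1 were higher and 0 were lower.

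The contractile apparatus differed little. Of 23 adult sarcomere and Z-disc genes, all described, 2 were higher and 0 lower, with a median of 0.14. The titin cap Tcap had 12.70, 14.70 and 15.51 and the M-band protein Myom2 13.69, 15.71 and 16.39. Both were already above sham in AAC and stood higher still in AAC + DAPA. The light chain Myl2 had 19.20, 18.88 and 19.25 and troponin T, Tnnt2, 19.46, 19.49 and 19.61.

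Of 17 fetal and load-induced genes, 11 were described, 4 were higher (36.4%, against 5.7% of the genes described) and 0 lower. The median was 0.40, and over all 17 it was 0.07. Skeletal actin Acta1, a fetal isoform in heart, had 11.72, 10.35 and 13.34 (7.94-fold higher). The natriuretic peptide Nppa had 14.30, 17.83 and 19.37, the last close to the highest value of its array, 19.9. Ccn2, a matrix-associated growth factor that stretch induces, had 7.31, 8.27 and 9.91 (3.12-fold higher), and Uchl1, a ubiquitin hydrolase, 5.65, 5.73 and 6.35. All 4 were highest in AAC + DAPA. The other natriuretic peptide Nppb had 12.97, 13.79 and 13.51, the fetal myosin Myh7 14.37, 16.65 and 16.76 and the stretch-induced Ankrd1 17.05, 19.20 and 19.62, all within 1.5-fold of AAC. A CArG box is the site of serum response factor in actin promoters, here searched strictly as CCWWWWWWGG with W for A or T. It lies upstream of Acta1, the only holder among 10 members of the list with a window, and in 1.47% of all windows. It is shown with the box in capitals.
Acta1, chr8:123894819-123894868 (-): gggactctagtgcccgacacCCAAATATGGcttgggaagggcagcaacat
Of the 11 smooth muscle genes with a window, none held these strict letters in the 250 bases. This says nothing of boxes with looser spelling or outside the 250 bases.

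Acta1 and Casq1, the calcium store protein of skeletal muscle (5.60, 5.43 and 7.89), are also skeletal muscle markers, as is Mybpc2 (4.26, 4.40 and 5.46), all 3 higher in AAC + DAPA. Of the 26 such markers 8 were described, and 9 were under the 25th percentile on all arrays. The defining fast fiber genes were not described, with the myosin Myh4 at 4.33, 4.59 and 3.99, the calcium pump Atp2a1 at 3.18, 2.90 and 3.18, parvalbumin Pvalb at 3.25 on all arrays and Mylpf at 3.54 on all. Of 15 atrial markers 10 were described, and Nppa and Dkk3 (5.09, 4.64 and 5.33) were higher. The atrial light chains Myl7 (3.54, 3.30 and 3.30) and Myl4 (7.13, 7.13 and 7.40) and sarcolipin Sln (5.40, 5.21 and 5.40) lay within 1.5-fold of AAC, and Myl7 was under the 25th percentile of every array.

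Smooth muscle actin Acta2 had 15.25, 10.08 and 12.13, 4.14-fold above AAC and below sham. Of the other smooth muscle genes described, Hspb6, given above, was higher, Tpm4 (12.29, 12.27 and 11.60) was lower, and transgelin Tagln (7.34, 7.27 and 7.34) and smooth muscle myosin Myh11 (4.65, 5.56 and 5.28) lay within 1.5-fold, so that the list of 14 had a median of −0.06.

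The described genes of excitation and calcium cycling hardly differed. Of 18 potassium channels and 7 sodium, calcium and pacemaker channels described, none was past 1.5-fold, although with centred arrays 1 potassium channel was. Over all 29 and 15 measured, Kcna4 (3.88, 4.26 and 5.10) was higher and Cacna1d (4.15, 5.02 and 4.23) and Hcn4 (4.73, 4.72 and 4.10) lower, each under the median of every array. Of 19 calcium handling genes described only Casq1 was past 1.5-fold. The cardiac store protein Casq2 had 17.56 on all 3 arrays, phospholamban Pln 19.48, 19.48 and 19.46 and the release channel Ryr2 15.34, 15.25 and 15.17. The ATP-sensitive potassium channel subunit Abcc9 had 14.55, 14.73 and 14.24. Of 19 cardiac transcription factors, Tbx3 of the conduction system (6.31, 6.31 and 5.68) and ventricular Irx4 (7.61, 8.43 and 7.83) were lower, both close to the threshold and within it when the arrays were centred. Gata4 had 11.63, 11.45 and 11.45.

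**Figure D5:**
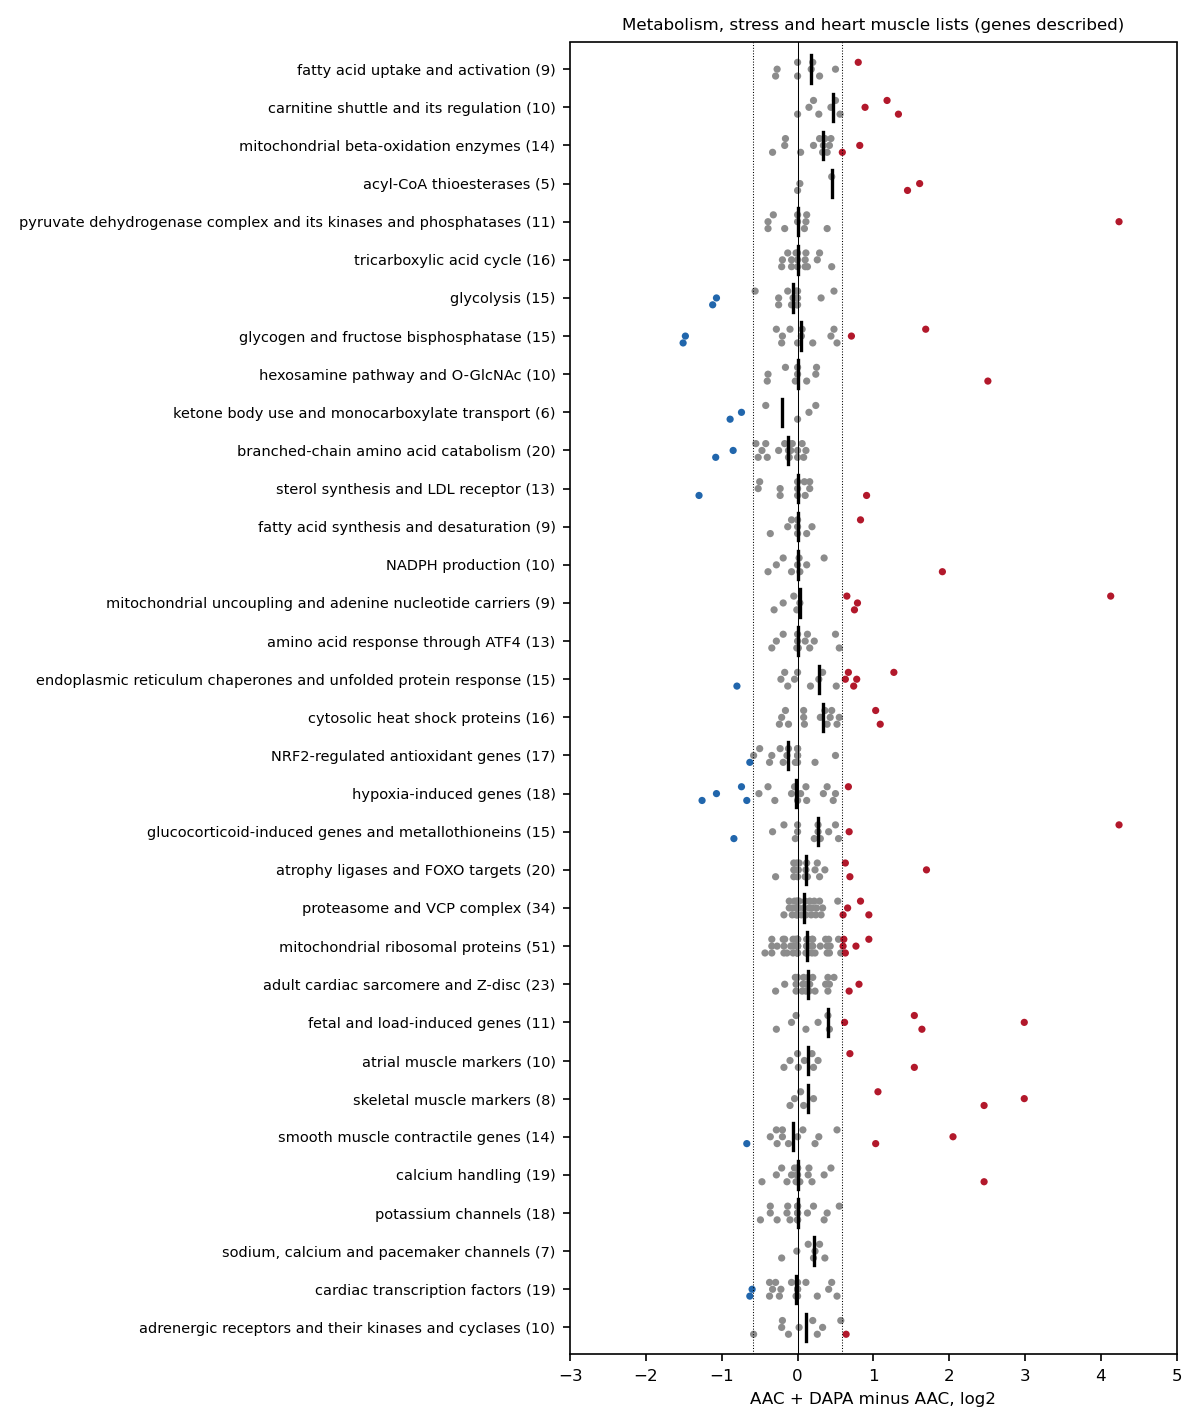
Difference between AAC + DAPA and AAC (log2, horizontal) for each described member of the metabolism, stress and heart muscle lists with at least 5 such members. Points are genes (red and blue at least 1.5-fold higher or lower), black bars are list medians and the number of genes is in parentheses. The carnitine shuttle list has a median of 0.47 with 3 red genes, and all 16 tricarboxylic acid cycle genes and 18 potassium channels lie between the dotted lines.

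Genes of the fibrotic matrix showed no common difference. Of 8 fibrillar and associated collagens described, only Col14a1 (5.77, 5.14 and 5.80), which binds collagen fibrils, was past 1.5-fold, and the main fibrillar chains Col1a1 (6.11, 6.11 and 5.90), Col1a2 (7.55, 7.25 and 7.39) and Col3a1 (10.25, 9.14 and 8.62) were not. In basement membranes Col4a1 (6.94, 6.02 and 6.84) and the laminin chain Lamc1 (11.15, 10.76 and 11.40) were higher, 2 of 11. Of 18 matrix proteins of fibrosis, Ccn2 and Fbln1 (8.60, 8.24 and 8.99) were higher, while periostin Postn (9.80, 9.88 and 9.80) and fibronectin Fn1 (6.16, 6.16 and 5.94) were not. The medians of these 3 lists were between 0.00 and 0.01.

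Proteoglycans and proteases went both ways. Prelp, which links collagen to basement membrane, had 8.28, 7.54 and 8.92, and the heparan sulfate proteoglycan Sdc2 8.73, 7.82 and 8.73, both higher, whereas its relative Sdc4 (7.22, 7.87 and 7.02) and Vcan (8.18, 8.21 and 7.05) were lower. The protease Mmp12, known as macrophage elastase, had 6.13, 7.02 and 5.0 (4.06-fold lower), and was lower as most macrophage markers were. Stromelysin Mmp3 (5.75, 5.37 and 6.46) and the inhibitor Timp4 (9.22, 9.70 and 10.66) were higher. Of 23 TGF-beta and BMP signaling genes, only Id2, a transcriptional inhibitor that BMPs induce, was past 1.5-fold, with 9.83, 9.97 and 8.93. The ligands Tgfb1 and Tgfb2 differed by −0.13 and −0.17.

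Of 19 endothelial markers described, 3 were higher and 1 lower. Over all 21 measured, 3 were higher and 2 lower, with Plvap (4.71, 4.61 and 3.74), too low to be described, among the lower. Beside Rbp7, the water channel Aqp1 had 12.45, 12.31 and 13.54 (2.35-fold higher) and the capillary carbonic anhydrase Car4 8.70, 8.38 and 9.0, while the VEGF receptor Kdr had 13.59, 13.62 and 12.96. The pan-endothelial genes Pecam1 (11.70, 11.70 and 11.61) and Cdh5 (12.67, 12.45 and 12.66) lay within 1.5-fold, and the median was 0.00. None of 9 pericyte markers was past 1.5-fold. Of 10 fibroblast markers described only Tcf21, a transcription factor (6.66, 6.71 and 6.11), was lower, and not so when the arrays were centred. Of all 14 measured, Thy1 (5.11, 4.34 and 5.11) was higher and Meox1 (5.39, 4.78 and 4.09) lower, both too low to be described. Of 13 adipocyte markers 5 were described, and Lipe (8.06, 6.47 and 7.47) and Cidea (9.66, 8.82 and 9.75) were higher and Slc36a2 (4.83, 6.19 and 5.56) lower, though not with centred arrays. The defining adipocyte genes Adipoq (3.33, 2.89 and 3.33) and Plin1 (3.29, 3.28 and 3.46) were under the 25th percentile of every array.

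Of 31 mitotic genes only 7 were described, and 5 of these were lower, against 5.37% of the genes described, and 0 higher. Kif11 and Cenpe among them were described only through the AAC array, where they were high. Over all 31, 5 were lower and 0 higher. Pttg1 stood apart from the rest by its size. The proliferation marker Mki67 had 5.37, 6.60 and 5.81, the spindle motors Kif11 and Cenpe 4.58, 5.60 and 4.57 and 4.83, 5.54 and 4.93, and the spindle protein Nusap1 4.75, 6.29 and 5.63. Cenpe was close to the threshold and within it when the arrays were centred. These 4 were highest in AAC, whereas Pttg1 was highest in sham. The defining genes Cdk1, Plk1, Bub1 and Top2a were not described and lay within 1.5-fold, and the median over all 31 was −0.22. With genes described by their mean over the 3 arrays, 3 of the mitotic genes were lower. None of 10 DNA replication genes and none of 16 cell cycle inhibitors and p53 targets was past 1.5-fold, with Pcna at 13.44, 13.17 and 13.34 and Cdkn1a at 9.17, 5.91 and 6.18.

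Core clock genes, whose transcripts cycle over the day, were more often higher. Of 16 described, 6 were higher (37.5%, against 5.7% of the genes described) and 1 lower (6.25%, against 5.37%), with a median of 0.22. Of the higher genes, Npas2 was described only through the AAC + DAPA array. Over all 17 measured, 6 were higher and 1 lower, against 3.98% and 4.11% over all genes outside X and Y. The activators Arntl and Npas2 had 9.90, 5.41 and 6.34 and 6.59, 4.58 and 5.46, and the repressors Ciart, Nr1d1 and Per1 4.65, 8.07 and 9.36, 9.98, 9.70 and 10.66, and 5.75, 7.09 and 7.77. Arntl and Npas2 were therefore low and Ciart and Per1 high against sham on both AAC arrays, and activators and repressors were higher together in AAC + DAPA. Rora, an activator of Arntl, was lower (7.93, 8.70 and 8.09), but not with centred arrays. Among clock output genes Dbp had 12.06, 15.98 and 16.04. The hour at which each heart was taken is not stated in these sources, and its part was not tested.

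Of 20 immediate early genes described, which signals induce within minutes, Egr1 (8.53, 7.04 and 5.80) and Ier3 (8.15, 8.87 and 7.82) were lower, by 2.36-fold and 2.07-fold, and Rgs2, which shortens G protein signals, was higher by 2.79-fold (9.09, 9.0 and 10.48). Fos, under the 25th percentile on all arrays, had 3.77, 3.77 and 3.80, and Jun 9.22, 7.99 and 8.44. Among glucocorticoid-induced genes, which overlap with the clock and Pdk4, Fkbp5 had 10.64, 10.41 and 10.68 and Zbtb16 13.56, 12.86 and 12.53, within 1.5-fold of AAC.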

How the data were processed

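Heart RNA was measured on 3 Affymetrix arrays, 1 each for sham, AAC and AAC + DAPA, grouped by their labels. The authors deposited normalized log2 expression, 1 value per probe and array. Affymetrix Expression Console is named in the submitters' processing notes, the paper names an array made for human genes and an Agilent protocol, and the normalization method was not given in the sources used here. The deposited probes name mouse genes. Of 22206 probes, 19572 have 1 gene symbol, 0 several and 2634 none. Gene values are means over probes (55 genes have several), 19505 genes in all, all found in the RefSeq gene table, 798 on X, 32 on Y and 1 with no chromosome (kept). Fold is 2 to the power of the log2 difference. 0 columns were left unassigned. The number of arrays limits the precision.

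The members, lists, motifs and alternatives were chosen with earlier results of these data known. Named were the 25 largest rises and falls (names without a known function left out), up to 6 members past 1.5-fold and 3 defining members per list, genes the study names for its arrays (some not reported here), and genes whose probes disagreed (0 found). Further genes named were chosen after their values were seen. Summed levels are log2 of the sum of linear values. Motifs were searched in RefSeq promoter windows of GRCm38.p6, 250 bases before to 50 after the start, matches counted in the first 250. The counting was tested on simulated data. Alternatives were median centring, quantile normalization, 1 probe per gene (the highest mean), other filters on the level, a 2-fold threshold, and X and Y kept. Tools were pandas 2.3.3, numpy 2.4.6 and matplotlib 3.10.9 under Python 3.11.15.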

Additional observations from a re-analysis of the deposited data

Results flagged for a closer look

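Outside the genes described, 24 of 32 measured genes of the Y chromosome had an AAC level 1.5-fold or more above those of sham and AAC + DAPA, a signal in data that the comparison does not use. The log2 levels of Eif2s3y were 2.50 (sham), 11.71 (AAC) and 2.72 (AAC + DAPA), and all mice are labelled male. AAC + DAPA and AAC thus differ in the level of these Y-linked genes as well as in the drug. Of the X-linked genes, 68 were higher and 22 lower with dapagliflozin at 1.5-fold. The part of this in the differences of the other chromosomes was not tested.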

How the results depend on the processing

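Quantile normalization gave 621 higher and 485 lower genes (56.1% higher), the probe with the highest mean 554 and 520, the mean over 3 arrays above the median 516 and 458, and genes of X and Y kept 611 and 559, all within 1.5 times of 552 and 520. With each array centred, all 552 higher genes stayed higher and 414 of the 520 lower genes stayed lower. A higher array above the 75th percentile left 273 higher and 235 lower, and a 2-fold threshold 119 and 168, by their construction. No named gene past 1.5-fold reversed in direction. Differences below 0 by less than the shift of 0.07, such as that of Myh6 (−0.02), change sign with centring. With centred arrays the lower genes Ccl21a, Cenpe, F13a1, Gclm, Irx4, Rora, Slc36a2, Tbx3 and Tcf21 lay within 1.5-fold, and with quantile normalization Cenpe, Tcf21 and the higher gene Hspa5 did. No paired analysis was possible because each group has 1 array. For the same reason no replicate could be left out, and levels under the 25th percentile of an array (3.81 to 3.85) were read only as low.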

Other observations

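The calls of neighbouring genes were counted along each chromosome. Of the 550 higher genes with a next described gene, the next one was also higher for 44 (8.0%, where 5.7% of all described genes were higher) and lower for 36, and of the 519 lower genes it was also lower for 59 (11.4%, against 5.37% of all) and higher for 29. Gene families such as the guanylate-binding proteins, H2 genes and chemokines are clustered and count here. Pgm3 (2.51 higher, log2) and Me1 (1.91 higher) are such neighbours on chromosome 9. On chromosome 4, Masp2 (2.90 higher), Srm, which makes spermidine (log2 levels of 6.96, 6.73 and 7.68 for sham, AAC and AAC + DAPA), and the RNA-binding protein Tardbp (11.11, 11.45 and 10.61) lie together and did not share 1 direction. The F-box genes Fbxo44 (7.51, 7.84 and 5.79), Fbxo2 (5.19, 4.65 and 5.67) and Fbxo6 (8.11, 8.07 and 7.54) of the same chromosome also differed in direction. These genes were chosen after their values were seen.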
